A study of Ambystoma mexicanum with 20 samples.

Results

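The change in the soft tissue (ST) of the regenerating axolotl limb between 3 and 8 days post-amputation (dpa), that is between wound healing and the formation of the blastema, was examined by RNA sequencing in control animals. ST is the tissue that underlies the epidermis at the stump end. Both forelimbs of juvenile axolotls were cut through the middle of the upper arm, and the vehicle DMSO was injected into the stump, under the wound epidermis, every other day. Of the 20 samples of the study, 4 belong to this comparison: 2 replicates of ST after DMSO at 3 dpa and 2 at 8 dpa, each a pool of the right and left limbs of 2 animals. The other 16 are ST at 0 dpa, taken right after amputation, ST at 3 and 8 dpa after MS-275, an inhibitor of class I histone deacetylases, and the epidermis of the same 5 conditions, with 2 replicates each. The animals of 3 dpa and of 8 dpa are different animals, no limb was followed over time, and the strain was not given in the sources used here. ST as dissected is a mixture of connective tissue, muscle, nerve, vessels, blood, skeletal elements and, at 8 dpa, blastema cells, so every value is an average over these. In such bulk samples, more cells of a type and more RNA per cell cannot be told apart.

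The blastema of a salamander limb is a mound of progenitor cells that forms under the wound epidermis. Most of its cells come from connective tissue fibroblasts near the cut, which leave their matrix, take up limb bud transcription factors such as PRRX1 and the HOX genes, and later form the new skeleton, tendon and dermis. Before that, muscle fibres and bone at the stump end are broken down by leukocytes, osteoclasts and secreted proteases, a phase called histolysis. The collagen-rich matrix is exchanged for one rich in fibronectin, tenascin and hyaluronan-binding proteoglycans, and signals of the WNT, BMP, FGF, hedgehog and Notch families act between the epidermis and the cells below it.

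Values are TPM, the share of a transcript in all transcripts of a sample, for 180605 assembled transcripts, which have no read depth, so no counting error can be given. A transcript was tested when its TPM was above 0 in at least 5 of the 10 ST samples, which left 87546. Fold changes are 8 dpa over 3 dpa on the log2(TPM + 0.1) scale, given with the standard error of limma, and a transcript was called at a Benjamini-Hochberg adjusted p under 0.05 over all tested transcripts. With 2 samples against 2, an exact permutation test cannot go below p = 0.333, so the calls rest on the spread that limma estimates over all 10 ST samples, and limma on the 4 samples alone called 1 transcript. The 3 dpa replicates were less alike than the 8 dpa replicates: over the 31570 transcripts that averaged at least 1 TPM, the median absolute log2 difference within the pair was 0.387 at 3 dpa and 0.178 at 8 dpa. Typical TPM were also higher at 8 dpa, with median ratio factors (the median transcript of a sample relative to the average of ST) of 0.975 and 1.09 at 3 dpa and of 1.54 and 1.49 at 8 dpa. The median log2 fold change of all tested transcripts was therefore 0.47 with TPM as deposited and 0.05 after division by these factors (rescaled TPM), and a change has to be read against that shift. Calls are given for TPM as deposited unless rescaled TPM are named. Gene symbols came from shortened lists of the transcripts that the authors called in control samples, this comparison included. The named genes are therefore selected for change. Counts of named genes are also given over the symbols from the epidermis lists, which were not chosen on ST. By the paper's count of animals both tissues came from the same animals, so those lists do not come from independent animals.

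The samples carried the markers of connective tissue, muscle and blood throughout. The summed TPM of 8 connective tissue markers, among them COL1A1, DCN and PRRX1, was 2096 and 3297 at 3 dpa and 8603 and 8670.0 at 8 dpa. Sarcomere genes summed to 30156 and 11462 TPM at 3 dpa and 4567 and 5091 at 8 dpa, so replicate 1 at 3 dpa held the most muscle RNA of the 4. Erythroid genes took 27962 and 42907 TPM at 3 dpa and 33615 and 48006 at 8 dpa, with overlapping groups. Keratinocyte genes, which mark epidermis, summed to 79.6 and 194 TPM at 3 dpa and 546 and 521 at 8 dpa, against 3809.5 and 8375 and 6874 and 7806 in the epidermis itself. Schwann cell and nerve genes had summed TPM of 337 and 331 at 3 dpa and 221 and 215 at 8 dpa. The part of these mixtures in the changes of other genes was not tested.

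**Figure D1:**
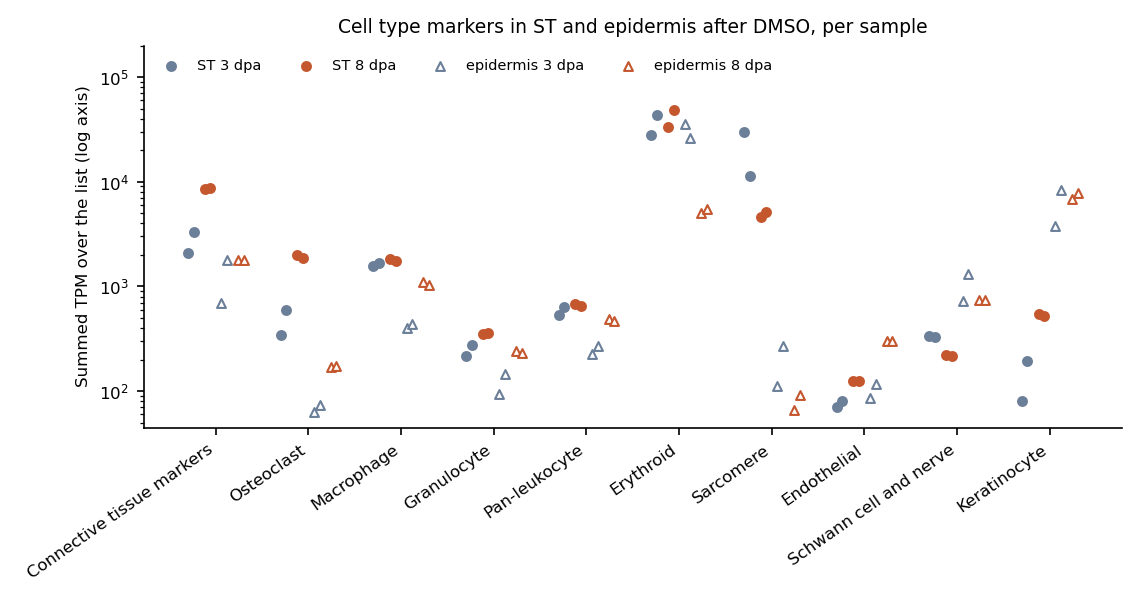
Summed TPM (log axis) of the markers of 10 cell types in each DMSO sample, with ST as filled circles, epidermis as open triangles, 3 dpa in grey-blue and 8 dpa in orange, 2 samples a group. Connective tissue and osteoclast markers were higher in both 8 dpa samples of ST than in either 3 dpa sample, sarcomere genes were lower, and macrophage and erythroid sums were close.

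Between 3 and 8 dpa, ST gained transcripts of matrix, cartilage, limb patterning and signalling genes, and lost those of some muscle and ribosomal proteins. Of the 87546 transcripts, 1524 rose (1.74%) and 152 fell (0.174%). With rescaled TPM, 146 rose (0.167%) and 69 fell (0.0788%), and 202 were called in the same direction under both scalings, 146 up (0.167%) and 56 down (0.064%). At an unadjusted p under 0.05 there were 17557, against 10417 after rescaling. Both 8 dpa samples lay above both 3 dpa samples for 45.0% of all transcripts and below for 8.98%, so a group of genes without overlap is common here. A symbol could be given to 3485 tested genes, each represented by its most abundant transcript, and 538 of these rose (15.4%) and 60 fell (1.72%), while 57.3% lay without overlap above 3 dpa and 19.2% below. Under both scalings 60 of the 3485 rose (1.72%) and 21 fell (0.603%), and counts of list members called under both scalings stand against these. Over the 1954 symbols from the epidermis lists, 118 rose (6.04%) and 13 fell (0.665%) with TPM as deposited. The authors' calls for this comparison held 765 of the 3485, and a gene list with more members from there can hold more calls for that reason. The count depended on single samples: without replicate 1 at 3 dpa 196 transcripts were called, without replicate 2 at 3 dpa 3138, and without replicate 1 or replicate 2 at 8 dpa 22 and 20.

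**Figure D2:**
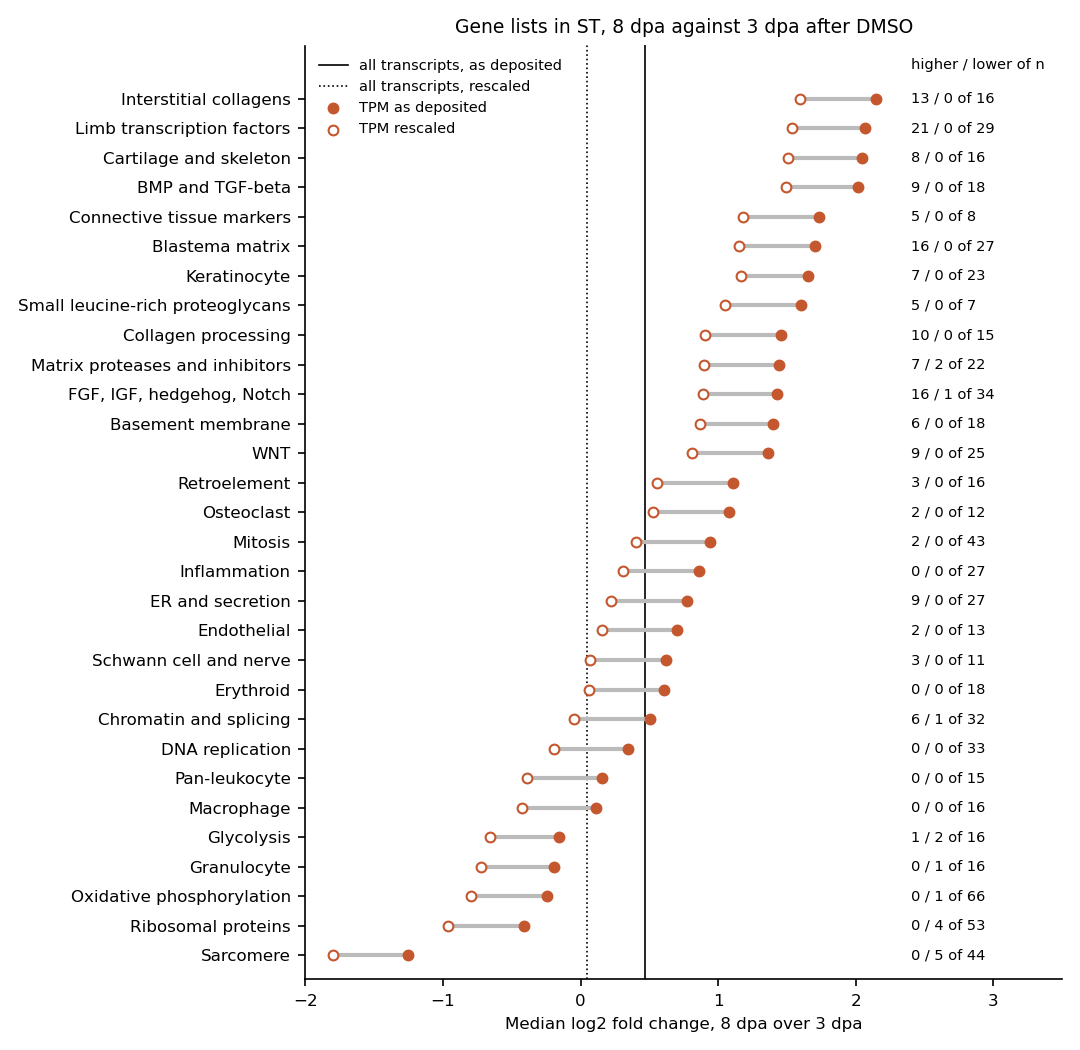
Median log2 fold change of 8 dpa over 3 dpa in ST for 30 gene lists, from TPM as deposited (filled) and rescaled (open), with the medians of all tested transcripts as lines and the number of members called higher and lower at the right. Collagens, limb transcription factors, cartilage and BMP and TGF-beta genes lay highest at medians above 2 with TPM as deposited, and sarcomere genes lowest at -1.25.

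Among the genes called under both scalings, the largest rises were of unlike functions. EEF1B, a subunit of the factor that recharges the elongation factor of translation, had 6.59 and 4.45 TPM at 3 dpa and 1046 and 929.6 TPM at 8 dpa (log2 fold change 7.48 ± 0.30, adjusted p = 0.000152). At 1051 and 1213 TPM at 0 dpa, EEF1B was above its 3 dpa values before regeneration too. In the epidermis the same transcript had 2119.7 and 8.35 TPM at 0 dpa and 2117 and 14.6 TPM at 3 dpa, so its replicates can differ widely within a group. ERH, a small protein of RNA processing, followed the course of EEF1B in ST with 110.2 and 79.3 TPM at 0 dpa, 0.72 and 0.64 TPM at 3 dpa and 53.9 and 64.5 TPM at 8 dpa (log2 fold change 6.24 ± 0.26, adjusted p = 0.000152). SPR, sepiapterin reductase of tetrahydrobiopterin synthesis, likewise had 15.2 and 21.3 TPM at 0 dpa and 0.56 and 0.98 TPM at 3 dpa and 21.1 and 20.4 TPM at 8 dpa (log2 fold change 4.63 ± 0.28, adjusted p = 0.00108). For SPR the sum of its paired transcripts was 8.88 and 11.25 TPM at 3 dpa and 30.4 and 31.3 TPM at 8 dpa (log2 fold change 1.62), so the listed transcript moved further than the gene as a whole.

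Further large rises called under both scalings were those of CDH6, FREM1, MSLNL, SFTPC and DDB_G0268948. CDH6, a cadherin of embryonic mesenchyme and kidney, was measured at 0.25 and 0.29 TPM at 3 dpa and 10.7 and 10.5 TPM at 8 dpa (log2 fold change 4.85 ± 0.38, adjusted p = 0.00425), with 3 dpa values as low as the 0.24 and 0.12 TPM at 0 dpa. FREM1, a basement membrane protein that joins dermis and epidermis, was near 0 at 3 dpa and reached 2.03 and 2.43 TPM at 8 dpa (log2 fold change 4.20 ± 0.52, adjusted p = 0.0166). MSLNL, related to the surface protein mesothelin, had 0.03 and 0.17 TPM at 3 dpa and 3.43 and 3.44 TPM at 8 dpa (log2 fold change 4.24 ± 0.47, adjusted p = 0.0126). SFTPC, named by sequence match to a lung surfactant protein, had 0.10 and 0.56 TPM at 3 dpa and 37 and 37.4 TPM at 8 dpa (log2 fold change 6.68 ± 0.74, adjusted p = 0.0128). DDB_G0268948, a symbol that comes from a match to a protein of the slime mould Dictyostelium, had 0.60 and 0.28 TPM at 3 dpa and 13.1 and 14.02 TPM at 8 dpa (log2 fold change 4.73 ± 0.51, adjusted p = 0.0116). None of these overlapped between 3 and 8 dpa. In the epidermis at 8 dpa SFTPC had 441 and 432 TPM, DDB_G0268948 167 and 192 TPM and MSLNL 35.7 and 54.7 TPM, all above ST. CDH6, at 0.67 and 0.83 TPM, and FREM1, at 0 and 0.20 TPM, were lower there than in ST. The part of epidermal RNA in these rises was not tested.

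Several transcripts were listed at 0 in one of the groups, and no fold is given for them. CSRP1, a LIM domain protein of the actin cytoskeleton, was listed at 0 in both 3 dpa samples and had 69.3 and 63.5 TPM at 8 dpa (adjusted p = 0.000152), yet it had 24.9 and 38.2 TPM at 0 dpa. APLNR, the receptor of the peptides apelin and elabela, was at 0 at 3 dpa and at 3.41 and 3.64 TPM at 8 dpa (adjusted p = 0.00682). SH3KBP1, an adaptor of receptor endocytosis, was at 0 and then at 2.88 and 2.32 TPM (adjusted p = 0.00402), with 0.84 and 0.59 TPM at 0 dpa. TMEM69, a membrane protein, was at 0 and then at 4.29 and 4.30 TPM (adjusted p = 0.00677), with 1.39 and 4.13 TPM at 0 dpa. In the other direction, ARHGDIA had 12.8 and 10.6 TPM at 3 dpa and was listed at 0 in both 8 dpa samples (adjusted p = 0.000409). DDX21, a helicase of ribosome biogenesis, went from 6.71 and 11.0 TPM to 0 (adjusted p = 0.00108). PSMD4, the ubiquitin receptor of the proteasome, went from 3.93 and 9.38 TPM to 0 (adjusted p = 0.00321), and CMBL, a hydrolase, from 3.53 and 1.67 TPM to 0 (adjusted p = 0.0143). In the epidermis DDX21 went from 29.98 and 5.80 TPM at 3 dpa to 0 in both 8 dpa samples as well (limma, adjusted p = 0.00437). At 8 dpa there, ARHGDIA had 0 and 4.31 TPM and PSMD4 0 and 5.52 TPM, and CMBL was at 0. Each of these symbols had 1 paired transcript, so a listed 0 is a value of that transcript. Whether other transcripts of the same genes were present was not tested.

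The falls called under both scalings were of unlike functions too. RPS20, a protein of the small ribosomal subunit, had 2824 and 2928 TPM at 3 dpa and 4.23 and 11.1 TPM at 8 dpa (log2 fold change -8.69 ± 0.68, adjusted p = 0.00419). The sum of all paired RPS20 transcripts was 3499 and 3707 TPM at 3 dpa and 2839 and 2783 TPM at 8 dpa (log2 fold change -0.36, adjusted p = 0.62), which did not pass the test. MIF, a cytokine, fell from 131 and 75.0 TPM to 8.57 and 14.7 TPM (log2 fold change -3.14 ± 0.34, adjusted p = 0.0123). RPL7L1, a protein of ribosome assembly, fell from 38.0 and 32.7 TPM to 3.29 and 6.51 TPM (log2 fold change -2.90 ± 0.37, adjusted p = 0.0182). SLC25A4, the mitochondrial ADP/ATP carrier of muscle, had 261 and 109 TPM at 3 dpa and 26.4 and 29.2 TPM at 8 dpa (log2 fold change -2.60 ± 0.38, adjusted p = 0.0246), and PFKM, the muscle phosphofructokinase, had 54.8 and 25.4 TPM at 3 dpa and 5.82 and 7.79 TPM at 8 dpa (log2 fold change -2.45 ± 0.34, adjusted p = 0.0211). WIPF1, which binds the actin regulator WASP in blood cells, had 12.4 and 6.81 TPM at 3 dpa and 2.11 and 1.45 TPM at 8 dpa (log2 fold change -2.33 ± 0.35, adjusted p = 0.0268), and its 0.88 and 1.22 TPM at 0 dpa was close to the 8 dpa level. All of these were lower in both 8 dpa samples than in either 3 dpa sample. The most abundant RPS20 transcript, given first, also fell in the epidermis. It had 3606 and 2638 TPM there at 3 dpa and 3.94 and 9.75 TPM at 8 dpa (limma, adjusted p = 0.000292).

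Matrix genes formed a broad group. Of the 84 matrix genes in the lists of cartilage, interstitial collagens, basement membrane, blastema matrix and small leucine-rich proteoglycans, 48 rose and none fell, against 15.4% of the named genes that rose, and 14 of the 48 were also called after rescaling. Their median log2 fold change was 1.85. Both 8 dpa samples lay above both 3 dpa samples for 76 of the 84 and below for 2, against 57.3% and 19.2% of all named genes. These shares, and the 15.4%, also stand beside the counts of each matrix list below. The 14, and the counts under both scalings in those lists, stand against 1.72% of all named genes that rose under both scalings. Of the 84, the 34 paired through the epidermis lists had 16 rises, against 6.04% of all symbols from the epidermis lists. Of those symbols 56.1% lay above 3 dpa without overlap and 15.9% below. The lists describe the selection by the authors' calls as well as the tissue, and the call of single members depended on the sample left out: without replicate 1 at 3 dpa, none of the 16 collagens, none of the 16 cartilage genes, 1 of the basement membrane, 2 of the blastema matrix and 1 of the small proteoglycans were called, with medians of 1.92, 1.65, 1.30, 1.51 and 1.32. With either 8 dpa sample left out none of them was called.

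Interstitial collagens, which form the fibrils and networks of connective tissue, rose in their majority. Of 16, 13 were called higher and 4 of them under both scalings, all 16 had both 8 dpa samples above 3 dpa, and the median was 2.15 and 1.60 after rescaling. COL1A1, a chain of the fibril-forming collagen of dermis, tendon and bone, had 458 and 857 TPM at 3 dpa and 2249 and 2314 TPM at 8 dpa (log2 fold change 1.86 ± 0.36, adjusted p = 0.0465). COL1A2, its partner chain, had 628 and 1054 TPM at 3 dpa and 2951 and 2985 TPM at 8 dpa (log2 fold change 1.87 ± 0.34, adjusted p = 0.0424). Replicate 1 at 3 dpa was the lowest for both chains, and after rescaling neither passed the test, with adjusted p of 0.271 and 0.277. COL3A1, the collagen of young and healing connective tissue, had 556 and 762 TPM at 3 dpa and 1853 and 1855 TPM at 8 dpa and missed the threshold (log2 fold change 1.51 ± 0.32, adjusted p = 0.059).

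Some less abundant collagens, COL12A1, COL6A6, COL26A1 and COL8A1, had larger fold changes than COL1A1 and COL1A2. COL12A1, which sits on the surface of collagen fibrils in tendon and periosteum, had 21.3 and 43.1 TPM at 3 dpa and 234 and 211 TPM at 8 dpa (log2 fold change 2.87 ± 0.37, adjusted p = 0.0185). COL6A6, a chain of the beaded pericellular collagen, was even within each time, at 4.24 and 4.45 TPM at 3 dpa and 34.96 and 35.7 TPM at 8 dpa (log2 fold change 2.99 ± 0.33, adjusted p = 0.0124). COL26A1 had 0.50 and 0.82 TPM at 3 dpa and 7.06 and 6.93 TPM at 8 dpa (log2 fold change 3.26 ± 0.38, adjusted p = 0.0148) and COL8A1, a network collagen of vessels and cornea, had 0.81 and 1.48 TPM at 3 dpa and 7.27 and 6.97 TPM at 8 dpa (log2 fold change 2.59 ± 0.31, adjusted p = 0.0163). These 4 were called under both scalings and did not overlap between the times. COL5A1, which starts fibrils, rose from 43.3 and 68.9 TPM to 195 and 197 TPM (log2 fold change 1.84 ± 0.24, adjusted p = 0.0186) but not after rescaling (adjusted p = 0.109).

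Several cartilage genes were close to 0 at 3 dpa and measurable at 8 dpa, COL11A1 and ACAN apart. Of 16, 8 rose, 3 of them under both scalings, and the median was 2.04 and 1.51 after rescaling. The authors' calls for this comparison held 9 of the 16. Of the 6 cartilage genes paired through the epidermis lists 1 rose. The median of these 6 was 0.47 and -0.07 after rescaling, near the 0.40 and -0.11 of all symbols from those lists. COL2A1, the main collagen of cartilage, had 0.47 and 0.61 TPM at 3 dpa and 11.1 and 13.1 TPM at 8 dpa (log2 fold change 4.25 ± 0.47, adjusted p = 0.0128), with 1.25 and 1 TPM at 0 dpa. COL9A1, which binds to the fibrils of COL2A1, had 0.11 and 0.13 TPM at 3 dpa and 11.9 and 13.1 TPM at 8 dpa (log2 fold change 5.84 ± 0.71, adjusted p = 0.0162), and COL9A2, a chain of the same molecule, had 0.08 and 0.22 TPM at 3 dpa and 9.08 and 8.90 TPM at 8 dpa (log2 fold change 5.24 ± 0.81, adjusted p = 0.0284). COL11A1, the collagen that sets fibril width, was the most abundant of the called ones at 11.4 and 25.9 TPM at 3 dpa and 168 and 164 TPM at 8 dpa (log2 fold change 3.27 ± 0.45, adjusted p = 0.0214). MATN4, a matrilin of the cartilage matrix, went from 0 and 0.28 TPM to 10.5 and 11.0 TPM (log2 fold change 5.79 ± 0.82, adjusted p = 0.0221), and CILP2, a protein of articular cartilage, had 0.50 and 1.49 TPM at 3 dpa and 15.8 and 16.5 TPM at 8 dpa (log2 fold change 4.05 ± 0.64, adjusted p = 0.0298). SOX9, the transcription factor that commits cells to cartilage, had 0.87 and 1.48 TPM at 3 dpa and 5.78 and 5.60 TPM at 8 dpa (log2 fold change 2.23 ± 0.36, adjusted p = 0.0311). ACAN, the large proteoglycan of cartilage, stood apart from them at 81.01 and 177 TPM at 3 dpa and 104 and 95.1 TPM at 8 dpa (log2 fold change -0.26 ± 0.37, adjusted p = 0.732): its 3 dpa replicates lay on either side of 8 dpa, and without replicate 2 at 3 dpa its sign turned, to a log2 fold change of 0.30. Summed over its paired transcripts, ACAN had 246 and 325 TPM at 3 dpa and 208 and 191 TPM at 8 dpa, without overlap and without a call (log2 fold change -0.51, adjusted p = 0.333). The skeletal list thus held no called fall.

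The matrix of the blastema stage, which fills the space between migrating cells, changed as broadly. Of its 27 genes, 16 rose, 5 of them under both scalings, 24 were higher in both 8 dpa samples, 2 lower, and the median was 1.70 and 1.15 after rescaling. VCAN, a proteoglycan that binds hyaluronan and loosens the matrix, had 23.5 and 26.9 TPM at 3 dpa and 156 and 154 TPM at 8 dpa (log2 fold change 2.62 ± 0.21, adjusted p = 0.00443). FN1, fibronectin, on which cells migrate, had 57.5 and 96.2 TPM at 3 dpa and 463 and 466 TPM at 8 dpa (log2 fold change 2.64 ± 0.33, adjusted p = 0.0167), and TNC, tenascin C, had 135 and 152 TPM at 3 dpa and 390.1 and 395 TPM at 8 dpa (log2 fold change 1.45 ± 0.20, adjusted p = 0.0211). TNC had 2.55 and 2.48 TPM and VCAN 4.15 and 3.35 TPM at 0 dpa, so both 3 dpa values were already above the intact tissue for either gene. THBS2, a thrombospondin of connective tissue, had 46.2 and 75.1 TPM at 3 dpa and 422 and 397 TPM at 8 dpa (log2 fold change 2.80 ± 0.30, adjusted p = 0.0121), FBN2, the fibrillin of embryonic microfibrils, 23.4 and 33.8 TPM at 3 dpa and 157 and 154 TPM at 8 dpa (log2 fold change 2.47 ± 0.26, adjusted p = 0.0114), and EMILIN1, an elastic fibre protein, 21.3 and 29.9 TPM at 3 dpa and 146 and 134 TPM at 8 dpa (log2 fold change 2.47 ± 0.27, adjusted p = 0.0128).

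The most abundant gene of that list was KAZALD1, a secreted protein known from the axolotl blastema, with 343 and 297 TPM at 3 dpa and 1194 and 1168 TPM at 8 dpa (log2 fold change 1.89 ± 0.27, adjusted p = 0.023) and 10.8 and 15.7 TPM at 0 dpa. TGFBI, an adhesion protein induced by TGF-beta, had 288 and 386 TPM at 3 dpa and 1109.9 and 1062 TPM at 8 dpa (log2 fold change 1.70 ± 0.30, adjusted p = 0.0374). SPARC, a collagen-binding protein, rose from 6.76 and 8.48 TPM to 94.1 and 57.0 TPM (log2 fold change 3.26 ± 0.38, adjusted p = 0.0151). None of the 3 overlapped between the times, and of them SPARC was also called after rescaling, with 0.0319 against 0.181 for KAZALD1 and 0.254 for TGFBI.

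Of 18 basement membrane genes with a tested transcript, from 20 listed, 6 rose, against 15.4% of all named genes, with a median of 1.40 and 0.87 after rescaling. Both 8 dpa samples were above 3 dpa for 16 of the 18, against 57.3% of all named genes. LAMB1, a beta chain of laminin, had 8.39 and 8.89 TPM at 3 dpa and 37.5 and 36.2 TPM at 8 dpa (log2 fold change 2.08 ± 0.20, adjusted p = 0.00832), and LAMA1, the alpha chain of the early embryo, had 1.34 and 1.99 TPM at 3 dpa and 12.1 and 11.6 TPM at 8 dpa (log2 fold change 2.79 ± 0.33, adjusted p = 0.0151). HSPG2, perlecan, had 2.86 and 3.66 TPM at 3 dpa and 12.4 and 14.7 TPM at 8 dpa (log2 fold change 2.03 ± 0.33, adjusted p = 0.0317), LAMC1, the common gamma chain, 5.61 and 7.03 TPM at 3 dpa and 15.9 and 15.7 TPM at 8 dpa (log2 fold change 1.32 ± 0.22, adjusted p = 0.0353), and AGRN, agrin, 0.62 and 0.57 TPM at 3 dpa and 1.91 and 1.78 TPM at 8 dpa (log2 fold change 1.48 ± 0.28, adjusted p = 0.0433). The levels of LAMB1 and LAMC1 were lower at 3 dpa than the 13.7 and 16.9 TPM and 8.44 and 7.49 TPM of 0 dpa. The member that also passed the test after rescaling was FREM1, given above.

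Small leucine-rich proteoglycans, which bind collagen fibrils, had 5 of 7 members called higher and 1 under both scalings, and the 2 others did not pass the test. KERA, keratocan, known from the cornea, had 0.47 and 0.96 TPM at 3 dpa and 14.4 and 13.6 TPM at 8 dpa (log2 fold change 4.18 ± 0.34, adjusted p = 0.00472) and 0.09 and 0.08 TPM at 0 dpa. DCN, decorin, had 224 and 284 TPM at 3 dpa and 693 and 698 TPM at 8 dpa (log2 fold change 1.46 ± 0.24, adjusted p = 0.0326), and OMD, osteomodulin, 2.01 and 4.28 TPM at 3 dpa and 15.8 and 17.4 TPM at 8 dpa (log2 fold change 2.46 ± 0.46, adjusted p = 0.0433). FMOD, fibromodulin of tendon and cartilage, had 0.23 and 0.06 TPM at 3 dpa and 1.91 and 2.40 TPM at 8 dpa (log2 fold change 3.29 ± 0.62, adjusted p = 0.0454), and OGN, osteoglycin, 67.6 and 95.9 TPM at 3 dpa and 187 and 184 TPM at 8 dpa (log2 fold change 1.20 ± 0.23, adjusted p = 0.0462), where 8 dpa came back to the 205 and 184 TPM at 0 dpa. LUM, lumican, had 199.7 and 296 TPM at 3 dpa and 760.2 and 719.9 TPM at 8 dpa (log2 fold change 1.60 ± 0.32, adjusted p = 0.0507) and ASPN, asporin, 2.45 and 2.63 TPM at 3 dpa and 4.78 and 4.88 TPM at 8 dpa (log2 fold change 0.90 ± 0.32, adjusted p = 0.176). All 7 were higher in both 8 dpa samples.

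**Figure D3:**
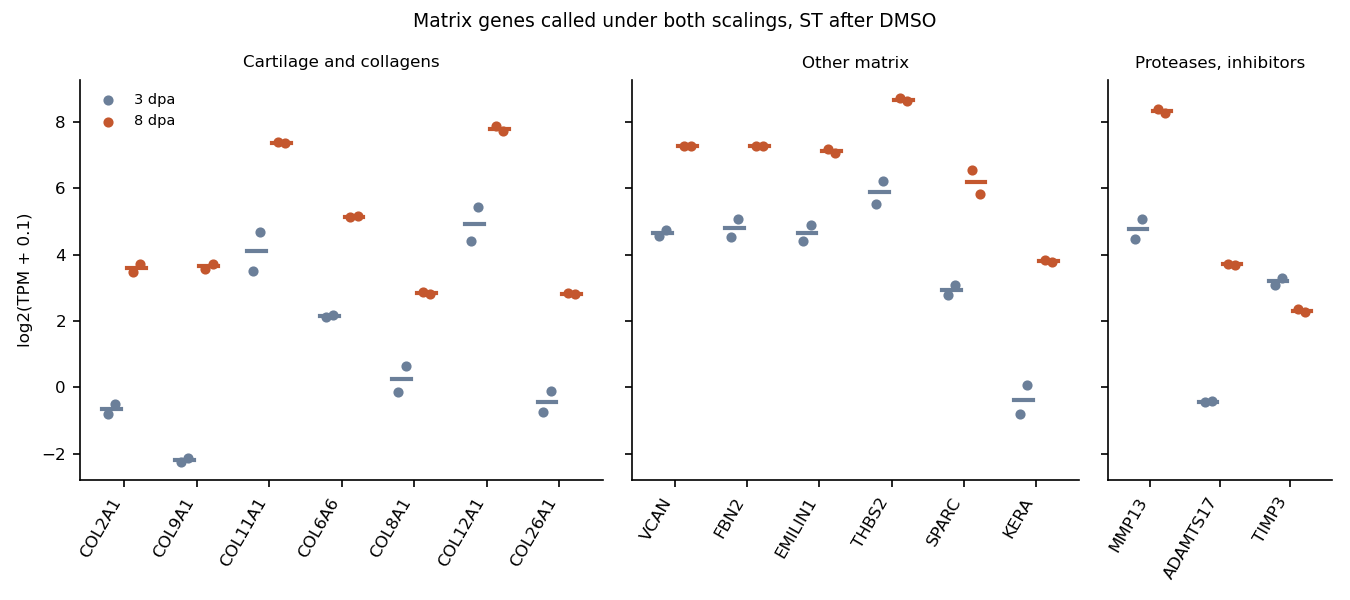
Expression of 16 matrix genes and proteases in single ST samples as log2(TPM + 0.1), with 3 dpa in grey-blue, 8 dpa in orange, 2 samples a group and a line at their mean. All were called under both scalings, 15 higher and 1 lower at 8 dpa, and the 3 dpa samples lay farther apart than the 8 dpa samples for most of them.

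Enzymes that make and cut matrix rose in part. Of 15 collagen processing genes 10 rose, against 15.4% of all named genes (median 1.46 and 0.91 after rescaling), none of them after rescaling. Of the 2 paired through the epidermis lists none rose. LOXL2, a lysyl oxidase that crosslinks collagen, had 7.13 and 9.51 TPM at 3 dpa and 33.8 and 29.6 TPM at 8 dpa (log2 fold change 1.93 ± 0.26, adjusted p = 0.0199), and LOXL3B, a relative, 3.58 and 4.03 TPM at 3 dpa and 12.5 and 15.2 TPM at 8 dpa (log2 fold change 1.83 ± 0.25, adjusted p = 0.0201). PLOD1 and PLOD2, which hydroxylate lysines of collagen, had log2 fold changes of 1.45 ± 0.23 and 2.01 ± 0.34. ADAMTS3, which trims procollagen, had 0.18 and 0.55 TPM at 3 dpa and 4.86 and 6.16 TPM at 8 dpa (log2 fold change 3.71 ± 0.51, adjusted p = 0.0211). PCOLCE2, an enhancer of procollagen cleavage, went the other way at 11.1 and 11.5 TPM at 3 dpa and 7.05 and 6.98 TPM at 8 dpa (log2 fold change -0.68 ± 0.20, adjusted p = 0.119), and it was called lower after rescaling (adjusted p = 0.0377).

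Among 22 matrix proteases and inhibitors 7 rose and 2 fell, against 15.4% and 1.72% of all named genes. Of the 13 paired through the epidermis lists 4 rose and 1 fell, against 6.04% and 0.665% of all symbols from those lists. MMP13, the collagenase of cartilage and wound repair, had 0.20 and 0.03 TPM at 0 dpa and 22.1 and 33.4 TPM at 3 dpa and 335 and 309.9 TPM at 8 dpa (log2 fold change 3.56 ± 0.42, adjusted p = 0.0151). MMP14, the membrane protease that activates MMP2, had 38.03 and 43.9 TPM at 3 dpa and 145 and 146 TPM at 8 dpa (log2 fold change 1.83 ± 0.21, adjusted p = 0.0144), and MMP2, a gelatinase of fibroblasts, 49.98 and 70.04 TPM at 3 dpa and 233 and 220.4 TPM at 8 dpa (log2 fold change 1.94 ± 0.28, adjusted p = 0.0226). ADAMTS17 was measured at 0.64 and 0.65 TPM at 3 dpa and 13.2 and 12.9 TPM at 8 dpa (log2 fold change 4.14 ± 0.47, adjusted p = 0.014). MMP9, the gelatinase of leukocytes and osteoclasts, had 55.1 and 174 TPM at 3 dpa and 448 and 421 TPM at 8 dpa and missed the threshold (log2 fold change 2.15 ± 0.46, adjusted p = 0.0595), with its 3 dpa replicates more than 3 times apart. Among the falls was TIMP3, an inhibitor of metalloproteases, with 8.44 and 9.75 TPM at 3 dpa and 5.06 and 4.72 TPM at 8 dpa (log2 fold change -0.88 ± 0.16, adjusted p = 0.0433), which was also called after rescaling. When replicate 1 at 3 dpa was left out, no collagen processing gene and no protease or inhibitor of the lists was called, without replicate 2 the proteases had 9 rises and 1 fall, and with either 8 dpa sample left out none was called.

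Of 12 osteoclast genes 2 rose, near the 15.4% of all named genes, so the count says nothing particular to the list. Osteoclasts are the large cells that resorb bone and calcified cartilage, and they form from the same precursors as macrophages. The summed TPM of 12 osteoclast genes was 341 and 589 at 3 dpa and 2003 and 1870.4 at 8 dpa. Both 8 dpa samples were above 3 dpa for 11 of the 12, against 57.3% of all named genes. CTSK, cathepsin K, which digests bone collagen, made up most of the sum at 8 dpa, with 5.34 and 6.08 TPM at 0 dpa and 73.9 and 233 TPM at 3 dpa and 1515 and 1410.0 TPM at 8 dpa (log2 fold change 3.47 ± 0.61, adjusted p = 0.0365). DCSTAMP, which lets osteoclast precursors fuse, had 0.40 and 0.53 TPM at 3 dpa and 5.84 and 5.61 TPM at 8 dpa (log2 fold change 3.38 ± 0.48, adjusted p = 0.0226). CTSK and DCSTAMP were the members called, and neither was called after rescaling. Summed over its paired transcripts, CTSK had 208 and 413 TPM at 3 dpa and 2614 and 2456 TPM at 8 dpa (log2 fold change 3.11, adjusted p = 0.0205). A less abundant CTSK transcript was also called higher (adjusted p = 0.000152). Calls of this list, also with a sample left out, are those of 1 transcript a gene.

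The other 10 osteoclast genes did not pass the test. ACP5, the acid phosphatase TRAP, had 67.4 and 99.4 TPM at 3 dpa and 166 and 157 TPM at 8 dpa (log2 fold change 0.98 ± 0.27, adjusted p = 0.109), and CA2, the carbonic anhydrase that supplies acid, 1.45 and 5.73 TPM at 3 dpa and 18.9 and 20.2 TPM at 8 dpa (log2 fold change 2.71 ± 0.73, adjusted p = 0.102). CLCN7 and TCIRG1, the chloride channel and a proton pump subunit of the resorbing membrane, had log2 fold changes of 1.18 ± 0.28 and 0.71 ± 0.19, and ATP6V0D2, another pump subunit, 0.70 ± 0.23. ITGB3, the integrin of the sealing zone, had 3.82 and 5.90 TPM at 3 dpa and 10.5 and 11.6 TPM at 8 dpa (log2 fold change 1.19 ± 0.29, adjusted p = 0.0779), SIGLEC15, a receptor of osteoclast formation, 5.21 and 10.7 TPM at 3 dpa and 20.8 and 20.7 TPM at 8 dpa (log2 fold change 1.46 ± 0.36, adjusted p = 0.0858), and OCSTAMP, a fusion protein, 1.38 and 2.38 TPM at 3 dpa and 3.77 and 3.29 TPM at 8 dpa (log2 fold change 0.92 ± 0.46, adjusted p = 0.308). CSF1R, the receptor of the growth factor that macrophages and osteoclasts share, had 31.8 and 54.01 TPM at 3 dpa and 74.5 and 69.3 TPM at 8 dpa (log2 fold change 0.79 ± 0.25, adjusted p = 0.146). TREM2, a receptor of both lineages, was the member with lower values at 8 dpa, 80.5 and 73.5 TPM at 3 dpa and 33.3 and 33.4 TPM at 8 dpa (log2 fold change -1.20 ± 0.36, adjusted p = 0.129). None of the 12 was called without replicate 1 at 3 dpa, and without replicate 2 at 3 dpa 6 were, while with either 8 dpa sample left out none was.

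No macrophage, pan-leukocyte or inflammation gene was called by limma. Of all named genes 15.4% were called higher and 1.72% lower. Paired through the epidermis lists were 15 of 16 macrophage, 10 of 15 pan-leukocyte and 22 of 27 inflammation genes. Of all symbols from those lists 6.04% rose and 0.665% fell, so the lack of a call in these lists says little. At an unadjusted p under 0.05 by limma, 1292 of the 3485 named genes were higher and 285 lower. The counts below stand against these, and the unadjusted rises of the inflammation list are near that share. Of the 16 macrophage genes 3 were higher at 8 dpa and none lower at an unadjusted p under 0.05 (median 0.11 and -0.43 after rescaling), and their sum was 1559 and 1669 TPM at 3 dpa and 1835 and 1757 at 8 dpa. LGMN, a lysosomal protease, had 234 and 256 TPM at 3 dpa and 452 and 425 TPM at 8 dpa (log2 fold change 0.84 ± 0.17, adjusted p = 0.0546), and C1QC, a complement subunit made by macrophages, had 371 and 428 TPM at 3 dpa and 401 and 378 TPM at 8 dpa (log2 fold change -0.03 ± 0.20, adjusted p = 0.953), with overlapping groups. Of 15 pan-leukocyte genes 1 was higher at an unadjusted p under 0.05, with a median that changed sign between the scalings, 0.16 and -0.39 after rescaling. Of 16 granulocyte genes 1 fell, PRTN3, proteinase 3 of neutrophils, with 7.22 and 9.31 TPM at 3 dpa and 2.62 and 2.44 TPM at 8 dpa (log2 fold change -1.66 ± 0.22, adjusted p = 0.0203), which was not called without replicate 1 at 3 dpa or with either 8 dpa sample left out, while the sum of the list was 217 and 274 TPM and then 349 and 361 TPM. PGLYRP1, a bactericidal granule protein, had 4.06 and 6.09 TPM at 3 dpa and 1.89 and 1.91 TPM at 8 dpa (log2 fold change -1.34 ± 0.28, adjusted p = 0.0558). Of 27 inflammation genes 12 were higher and none lower at an unadjusted p under 0.05 (median 0.86 and 0.31 after rescaling): IL11, a cytokine of the IL-6 family, had 21.1 and 29.4 TPM at 3 dpa and 76.9 and 75.99 TPM at 8 dpa (log2 fold change 1.61 ± 0.48, adjusted p = 0.126) and PTGS2, the prostaglandin synthase COX-2, 3.32 and 3.23 TPM at 3 dpa and 7.04 and 7.70 TPM at 8 dpa (log2 fold change 1.14 ± 0.24, adjusted p = 0.0593).

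Limb transcription factors held the largest number of calls of the 30 lists, while interstitial collagens had a larger share, 13 of 16. Of 29 with a tested transcript, from 35 listed, 21 rose and none fell, against 15.4% of all named genes, with a median of 2.07 and 1.54 after rescaling. The shortened list of the authors' calls for this comparison held 24 of the 29, against 765 of the 3485 named genes. The count thus follows in part from how the genes were named. Both 8 dpa samples were above 3 dpa for 26, and 1 was below, against 57.3% and 19.2% of all named genes. After rescaling 1 was called, MYCN, and of the 5 members paired through the epidermis lists 3 rose. In the absence of replicate 1 at 3 dpa, 1 was called, without replicate 2 at 3 dpa 15, and with either 8 dpa sample left out none, with medians between 1.84 and 2.17.

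PRRX1, the homeobox gene that marks limb mesenchyme and blastema cells, had 1.89 and 2.18 TPM at 0 dpa, 9.39 and 14.6 TPM at 3 dpa and 46.4 and 47.3 TPM at 8 dpa (log2 fold change 1.99 ± 0.26, adjusted p = 0.0185). MYCN, a growth-promoting factor of limb bud cells, had 0.59 and 0.67 TPM at 3 dpa and 9.40 and 7.83 TPM at 8 dpa (log2 fold change 3.57 ± 0.31, adjusted p = 0.00682). SHOX, which acts in the middle segment of the limb, had 2.97 and 5.38 TPM at 3 dpa and 19.4 and 21.01 TPM at 8 dpa (log2 fold change 2.31 ± 0.30, adjusted p = 0.0185), and MECOM, a zinc finger protein, 0.77 and 1.21 TPM at 3 dpa and 7.43 and 6.48 TPM at 8 dpa (log2 fold change 2.72 ± 0.34, adjusted p = 0.0175). Replicate 2 at 3 dpa was the higher of its pair for each of these 4, and no 3 dpa value reached an 8 dpa value.

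The HOX genes, which pattern the limb from shoulder to digit, rose together at low levels. HOXA10 had 0.41 and 0.64 TPM at 3 dpa and 3.93 and 3.12 TPM at 8 dpa (log2 fold change 2.55 ± 0.33, adjusted p = 0.0185), and HOXA11, of the lower arm, 1.28 and 1.30 TPM at 3 dpa and 5.23 and 5.22 TPM at 8 dpa (log2 fold change 1.94 ± 0.33, adjusted p = 0.0355). HOXD10 had 2.08 and 3.92 TPM at 3 dpa and 13.4 and 12.7 TPM at 8 dpa (log2 fold change 2.15 ± 0.37, adjusted p = 0.0354), and HOXD11A, a HOXD11 gene, 0.79 and 1.28 TPM at 3 dpa and 4.83 and 5.08 TPM at 8 dpa (log2 fold change 2.19 ± 0.38, adjusted p = 0.0367). HOXA3, better known from the neck and the pharyngeal arches, had 1.14 and 1.57 TPM at 3 dpa and 6.10 and 5.65 TPM at 8 dpa (log2 fold change 2.05 ± 0.27, adjusted p = 0.0185). At 0 dpa the same 5 lay between 0.37 and 1.51 TPM.

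Genes that set the other axes of the limb rose as well. LMX1B, which specifies dorsal identity, had 1.50 and 1.99 TPM at 3 dpa and 6.44 and 6.68 TPM at 8 dpa (log2 fold change 1.86 ± 0.27, adjusted p = 0.0244). HAND2, which acts on the posterior side upstream of sonic hedgehog, had 1.10 and 0.90 TPM at 3 dpa and 4.89 and 4.98 TPM at 8 dpa (log2 fold change 2.20 ± 0.38, adjusted p = 0.0357), and GLI3, the anterior repressor of that pathway, 0.59 and 0.75 TPM at 3 dpa and 3.61 and 3.75 TPM at 8 dpa (log2 fold change 2.30 ± 0.37, adjusted p = 0.0311). LHX2, which keeps distal mesenchyme growing, had 0.15 and 0.37 TPM at 3 dpa and 2.20 and 1.93 TPM at 8 dpa (log2 fold change 2.66 ± 0.49, adjusted p = 0.0413), and SALL3, a zinc finger protein of the limb bud, 2.09 and 2.34 TPM at 3 dpa and 10.1 and 9.97 TPM at 8 dpa (log2 fold change 2.13 ± 0.30, adjusted p = 0.0225). ETV4, a target of FGF signals in the limb bud, had 2.80 and 2.39 TPM at 3 dpa and 9.01 and 8.53 TPM at 8 dpa (log2 fold change 1.72 ± 0.26, adjusted p = 0.0255), SNAI1, a repressor in mesenchymal cells, 28.5 and 27.7 TPM at 3 dpa and 67.6 and 63.2 TPM at 8 dpa (log2 fold change 1.21 ± 0.21, adjusted p = 0.0368), and TBX18 1.17 and 1.32 TPM at 3 dpa and 3.88 and 3.76 TPM at 8 dpa (log2 fold change 1.55 ± 0.28, adjusted p = 0.0382). None of these 8 overlapped between the times.

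Some members of the list did not pass the test. MSXC, an MSX gene of fish and amphibians, had 0.42 and 1.15 TPM at 3 dpa and 3.83 and 3.46 TPM at 8 dpa (log2 fold change 2.21 ± 0.47, adjusted p = 0.0605). LEF1, the partner of beta-catenin, and SP8, a factor of the epidermal ridge, were listed at 0 in both 3 dpa samples, LEF1 with 0.25 and 0.48 TPM and SP8 with 0.34 and 0.30 TPM at 8 dpa. MSC, musculin, a factor of muscle precursors, was the member with both 8 dpa values below both 3 dpa values. It had 3.20 and 2.15 TPM at 3 dpa and 1.30 and 1.17 TPM at 8 dpa (log2 fold change -1.03 ± 0.34, adjusted p = 0.153). The lowest log2 fold change of the list was -1.74, of a member with overlapping groups and without a call.

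**Figure D4:**
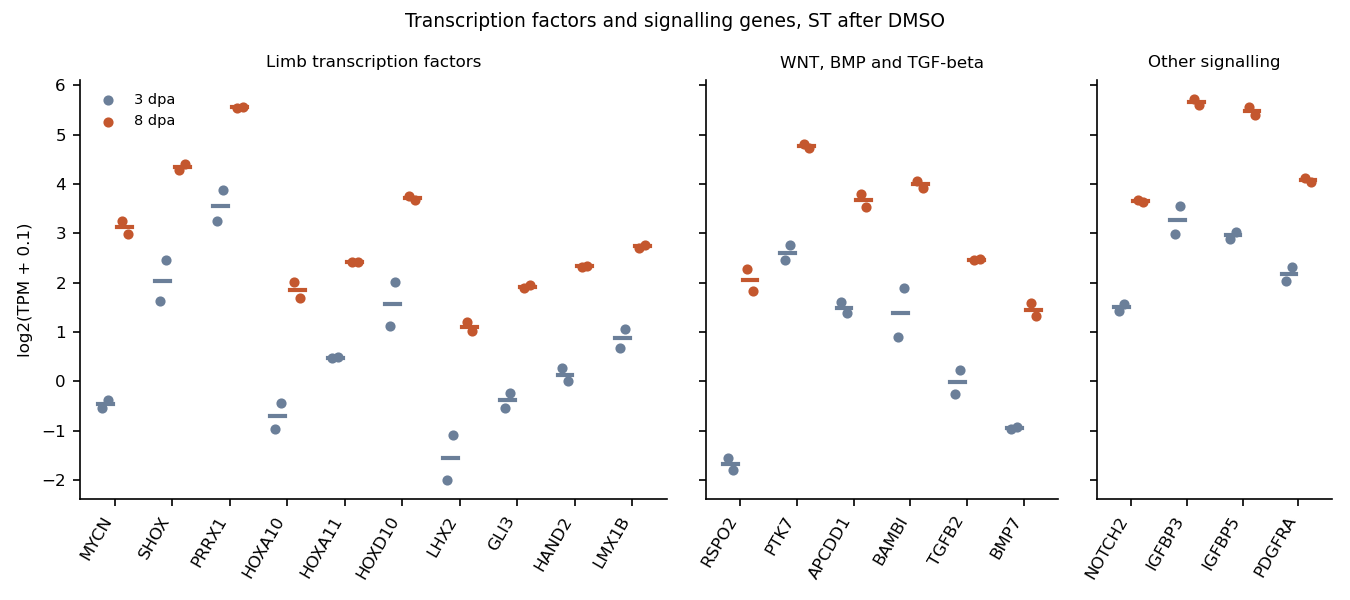
Expression of 10 limb transcription factors and 10 signalling genes in single ST samples as log2(TPM + 0.1), with 3 dpa in grey-blue, 8 dpa in orange, 2 samples a group and a line at their mean. All 20 were called higher at 8 dpa with TPM as deposited, and the groups of none of them overlap.

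Signalling genes rose on the side of ligands, receptors and inhibitors alike. In the WNT list 9 of 25 rose and none fell, against 15.4% of all named genes that rose (median 1.37 and 0.81 after rescaling). None of the 9 was called after rescaling. The authors' calls for this comparison held 11 of the 25. Of the 5 WNT genes paired through the epidermis lists none was called. The median of these 5 was -0.20 and -0.34 after rescaling, against 0.40 and -0.11 for all symbols from those lists. Of the ligand enhancers, RSPO2, an R-spondin of the limb bud, had 0.24 and 0.19 TPM at 3 dpa and 4.77 and 3.44 TPM at 8 dpa (log2 fold change 3.72 ± 0.64, adjusted p = 0.0353), and RSPO3 0.67 and 0.78 TPM at 3 dpa and 2.03 and 2.29 TPM at 8 dpa (log2 fold change 1.45 ± 0.27, adjusted p = 0.0435), below its 3.19 and 2.94 TPM at 0 dpa. Among receptors, FZD2 had 3.61 and 3.92 TPM at 3 dpa and 13.2 and 12.3 TPM at 8 dpa (log2 fold change 1.73 ± 0.25, adjusted p = 0.0231), ROR2, a receptor of the non-canonical branch, 2.53 and 2.39 TPM at 3 dpa and 9.54 and 8.87 TPM at 8 dpa (log2 fold change 1.86 ± 0.27, adjusted p = 0.0247), and PTK7, a coreceptor of planar cell polarity, 5.41 and 6.66 TPM at 3 dpa and 28.1 and 26.5 TPM at 8 dpa (log2 fold change 2.17 ± 0.22, adjusted p = 0.00949). CTNNB1, beta-catenin, the transducer of the canonical branch, had 29.2 and 34.03 TPM at 3 dpa and 97.2 and 89.6 TPM at 8 dpa (log2 fold change 1.56 ± 0.19, adjusted p = 0.0169). The inhibitors APCDD1 and NKD1, both targets of the pathway, had 2.95 and 2.50 TPM at 3 dpa and 13.8 and 11.5 TPM at 8 dpa (log2 fold change 2.17 ± 0.27, adjusted p = 0.0167) and 1.59 and 1.74 TPM at 3 dpa and 5.04 and 5.08 TPM at 8 dpa (log2 fold change 1.55 ± 0.23, adjusted p = 0.026).

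Secreted WNT antagonists were more abundant and more uneven. DKK3 had 11.4 and 22.8 TPM at 3 dpa and 66.9 and 61.99 TPM at 8 dpa (log2 fold change 1.99 ± 0.34, adjusted p = 0.0353). DKK1, which blocks the coreceptor LRP6, had 7.83 and 18.6 TPM at 3 dpa and 33.05 and 34.3 TPM at 8 dpa (log2 fold change 1.47 ± 0.36, adjusted p = 0.0828), and SFRP2 60.2 and 156 TPM at 3 dpa and 249 and 251 TPM at 8 dpa (log2 fold change 1.37 ± 0.44, adjusted p = 0.145), with its 3 dpa replicates farther apart than the step to 8 dpa. SFRP4 lay lower at 8 dpa, at 12.1 and 16.4 TPM at 3 dpa and 9.24 and 8.96 TPM at 8 dpa (log2 fold change -0.63 ± 0.29, adjusted p = 0.272). WLS, the carrier that WNT ligands need for secretion, had 25.5 and 35.3 TPM at 3 dpa and 66.99 and 60.7 TPM at 8 dpa (log2 fold change 1.08 ± 0.22, adjusted p = 0.0544), and the ligand WNT10A 1.96 and 1.70 TPM at 3 dpa and 1.47 and 1.51 TPM at 8 dpa (log2 fold change -0.28 ± 0.34, adjusted p = 0.686). Of the 25 WNT genes, 19 were higher and 3 lower in both 8 dpa samples, against 57.3% and 19.2% of all named genes. The lowest log2 fold change of the list was -2.51, without a call.

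In the BMP and TGF-beta list 9 of 18 rose and none fell, against 15.4% of all named genes (median 2.02 and 1.49 after rescaling), and none was called after rescaling. Of the 18, 17 were higher in both 8 dpa samples, against 57.3% of all named genes. The authors' calls for this comparison held 10 of the 18, against 765 of the 3485 named genes. Of the 4 members paired through the epidermis lists 1 rose. TGFB1, the ligand of wound repair, had 33.1 and 32.6 TPM at 3 dpa and 70.2 and 70.6 TPM at 8 dpa (log2 fold change 1.10 ± 0.15, adjusted p = 0.0211), and TGFB2, a ligand of skeletal development, 0.74 and 1.07 TPM at 3 dpa and 5.37 and 5.46 TPM at 8 dpa (log2 fold change 2.48 ± 0.29, adjusted p = 0.0155). BMP7 had 0.41 and 0.43 TPM at 3 dpa and 2.90 and 2.40 TPM at 8 dpa (log2 fold change 2.40 ± 0.34, adjusted p = 0.0221), and the receptors BMPR1A and BMPR2 0.83 and 0.79 TPM at 3 dpa and 3.45 and 3.08 TPM at 8 dpa (log2 fold change 1.88 ± 0.32, adjusted p = 0.0354) and 0.50 and 1.04 TPM at 3 dpa and 3.51 and 3.77 TPM at 8 dpa (log2 fold change 2.18 ± 0.42, adjusted p = 0.0491). Among inhibitors, BAMBI, a receptor without kinase, had 1.76 and 3.60 TPM at 3 dpa and 16.7 and 15.1 TPM at 8 dpa (log2 fold change 2.61 ± 0.32, adjusted p = 0.0166), CHRDL2, a chordin relative, 0.55 and 2.29 TPM at 3 dpa and 12.1 and 11.2 TPM at 8 dpa (log2 fold change 3.23 ± 0.53, adjusted p = 0.0319), and SOSTDC1 0.35 and 0.56 TPM at 3 dpa and 2.72 and 2.23 TPM at 8 dpa (log2 fold change 2.23 ± 0.37, adjusted p = 0.0323). KCP, a modulator with chordin-like repeats, had 0.51 and 0.49 TPM at 3 dpa and 2.76 and 2.45 TPM at 8 dpa (log2 fold change 2.17 ± 0.37, adjusted p = 0.0349). GREM1, the BMP antagonist of the limb bud, had 0.41 and 0.48 TPM at 3 dpa and 2.38 and 3.08 TPM at 8 dpa and missed the threshold (log2 fold change 2.37 ± 0.50, adjusted p = 0.0589).

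Of 34 genes of FGF, IGF, hedgehog, Notch and related signalling, 16 rose, 4 of them under both scalings, and 1 fell (median 1.43 and 0.89 after rescaling). Among all named genes 15.4% rose and 1.72% fell. Of the 18 members paired through the epidermis lists 5 rose, against 6.04% of all symbols from those lists. NOTCH2, a receptor, had 2.59 and 2.88 TPM at 3 dpa and 12.6 and 12.3 TPM at 8 dpa (log2 fold change 2.15 ± 0.18, adjusted p = 0.00677). IGFBP3 and IGFBP5, which bind insulin-like growth factors outside the cell, had 7.77 and 11.6 TPM at 3 dpa and 52.6 and 48.4 TPM at 8 dpa (log2 fold change 2.40 ± 0.21, adjusted p = 0.00682) and 7.28 and 8.07 TPM at 3 dpa and 46.9 and 42.3 TPM at 8 dpa (log2 fold change 2.52 ± 0.33, adjusted p = 0.0185). DISP1, which releases hedgehog ligands, had 3.40 and 2.88 TPM at 3 dpa and 13.8 and 13.9 TPM at 8 dpa (log2 fold change 2.11 ± 0.24, adjusted p = 0.0145), and SMO, the transducer of the receiving cell, 0.79 and 0.91 TPM at 3 dpa and 3.52 and 3.75 TPM at 8 dpa (log2 fold change 1.98 ± 0.30, adjusted p = 0.0279). PDGFRA, a receptor of fibroblasts, had 4.01 and 4.91 TPM at 3 dpa and 17.3 and 16.4 TPM at 8 dpa (log2 fold change 1.90 ± 0.20, adjusted p = 0.0116). MDK-A, a midkine and the most abundant growth factor of the list, had 156 and 198 TPM at 3 dpa and 929 and 970.5 TPM at 8 dpa (log2 fold change 2.43 ± 0.39, adjusted p = 0.0311). The fall was that of FGF16, 5.30 and 5.98 TPM at 3 dpa and 2.09 and 1.75 TPM at 8 dpa (log2 fold change -1.51 ± 0.28, adjusted p = 0.0411). Without replicate 1 at 3 dpa, 1 WNT gene, 2 BMP and TGF-beta genes and 2 genes of this last list were called, and with either 8 dpa sample left out none.

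Few genes of proliferation were called. Their share lay below the 15.4% of all named genes that rose, but most of them were paired through the epidermis lists. Of the 29 mitosis and 28 DNA replication genes paired there, 1 and 0 rose, against 6.04% of all symbols from those lists. The low count thus follows in part from how the genes were named. Yet 35 of 43 mitosis genes had both 8 dpa samples above 3 dpa, against 57.3% of all named genes. At an unadjusted p under 0.05 by limma 20 were higher and 1 lower, against 1292 and 285 of the 3485 named genes. The summed TPM of the list was 436 and 564 at 3 dpa and 861.5 and 808 at 8 dpa. Of 43 mitosis genes 2 rose, CDC20, an activator of the anaphase-promoting complex, with 7.89 and 12.2 TPM at 3 dpa and 25.7 and 24.4 TPM at 8 dpa (log2 fold change 1.34 ± 0.26, adjusted p = 0.0477) and KPNA2, an importin, with 48.3 and 75.2 TPM at 3 dpa and 148 and 139 TPM at 8 dpa (log2 fold change 1.25 ± 0.24, adjusted p = 0.0497), and the median was 0.94 and 0.40 after rescaling. TOP2A, the topoisomerase of dividing cells, had 9.18 and 13.3 TPM at 3 dpa and 49.6 and 50.3 TPM at 8 dpa (log2 fold change 2.17 ± 0.53, adjusted p = 0.0814), and PLK1, a mitotic kinase, 5.58 and 7.11 TPM at 3 dpa and 13.9 and 11.98 TPM at 8 dpa (log2 fold change 1.02 ± 0.23, adjusted p = 0.0702). None of 33 DNA replication genes was called by limma, 3 were higher at an unadjusted p under 0.05, and their median changed sign with the scaling, 0.35 and -0.19 after rescaling. PCNA, the clamp of DNA polymerase, had 124 and 101 TPM at 3 dpa and 80.9 and 71.4 TPM at 8 dpa (log2 fold change -0.56 ± 0.32, adjusted p = 0.374), and it was thus already higher at 3 dpa than its 0 dpa values of 25.6 and 12.8 TPM. No mitosis gene was called without replicate 1 at 3 dpa or with either 8 dpa sample left out.

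Genes of the secretory pathway rose in part. Of 27 genes of the endoplasmic reticulum and secretion 9 rose, against 15.4% of all named genes (median 0.77 and 0.22 after rescaling), 1 of them under both scalings. Of the 13 paired through the epidermis lists none rose, against 6.04% of all symbols from those lists. RRBP1, the ribosome-binding protein of the rough endoplasmic reticulum, had 9.82 and 11.3 TPM at 3 dpa and 46.7 and 36.7 TPM at 8 dpa (log2 fold change 1.97 ± 0.18, adjusted p = 0.00772). SEC31A, a coat protein of the vesicles that leave it, had 4.87 and 3.18 TPM at 3 dpa and 18.7 and 21.01 TPM at 8 dpa (log2 fold change 2.30 ± 0.25, adjusted p = 0.0112), and CALU, a calcium-binding protein of its lumen, 60.4 and 64.4 TPM at 3 dpa and 126 and 144 TPM at 8 dpa (log2 fold change 1.11 ± 0.16, adjusted p = 0.0225). With replicate 1 at 3 dpa left out, 2 of the list were called, and with either 8 dpa sample left out none.

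Of the 60 named genes that fell, 17 were in the lists, among them ribosomal and muscle genes. Of 53 ribosomal protein genes 4 fell and none rose, against 1.72% of all named genes that fell. In both 8 dpa samples 45 were lower, against 19.2% of all named genes, and the median was -0.41 and -0.96 after rescaling. Besides RPS20, these were RPS3A, with 1607 and 1098 TPM at 3 dpa and 24.96 and 111 TPM at 8 dpa (log2 fold change -4.65 ± 0.77, adjusted p = 0.033), RPS15, with 2329.8 and 1021 TPM at 3 dpa and 178 and 230.1 TPM at 8 dpa (log2 fold change -2.93 ± 0.51, adjusted p = 0.0358), and RPS27, with 4028 and 3179.7 TPM at 3 dpa and 251 and 812 TPM at 8 dpa (log2 fold change -2.99 ± 0.57, adjusted p = 0.0471). Ribosomal genes have many near-identical copies that a transcript assembly can split, so single members are uncertain. With TPM summed over paired transcripts 2 of the list fell, RPS3A with a log2 fold change of -2.78 (adjusted p = 0.0456) and RPS15 with -2.71 (adjusted p = 0.0414), and RPS27 was not called (-2.24, adjusted p = 0.0542). Of 66 genes of oxidative phosphorylation 42 were lower in both 8 dpa samples, against 19.2% of all named genes. The member that fell was COX7C, a subunit of cytochrome c oxidase, with 291 and 282 TPM at 3 dpa and 91.4 and 78.6 TPM at 8 dpa (log2 fold change -1.76 ± 0.23, adjusted p = 0.0185), also after rescaling. That 1 fall of 66 is near the 1.72% of all named genes, and COX7C summed over its paired transcripts was not called (log2 fold change -1.14, adjusted p = 0.072). Without replicate 1 at 3 dpa 1 ribosomal protein gene fell and COX7C was not called, and without replicate 1 at 8 dpa no member of either list was called. Among 16 glycolysis genes, the muscle enzymes PFKM, given above, and PGAM2 fell, PGAM2 with 129.7 and 66.2 TPM at 3 dpa and 26.02 and 28.9 TPM at 8 dpa (log2 fold change -1.75 ± 0.32, adjusted p = 0.0407), and ALDOC, the brain-type aldolase, rose with 2.95 and 2.57 TPM at 3 dpa and 9.11 and 8.81 TPM at 8 dpa (log2 fold change 1.67 ± 0.24, adjusted p = 0.0225).

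Of 44 sarcomere genes, the contractile proteins of muscle fibres, 5 fell and none rose, against 1.72% of all named genes that fell. None of the 44 was called after rescaling, with no trend or with a replicate block. Of the 44, 24 were lower in both 8 dpa samples, against 19.2% of all named genes, with a median of -1.25 and -1.80 after rescaling. ACTA1, skeletal actin, had 1179 and 544 TPM at 3 dpa and 182 and 173 TPM at 8 dpa (log2 fold change -2.17 ± 0.39, adjusted p = 0.0385). TNNC2, fast troponin C, had 266 and 82.5 TPM at 3 dpa and 12.4 and 18.8 TPM at 8 dpa (log2 fold change -3.27 ± 0.57, adjusted p = 0.0367), and MYL1, a fast myosin light chain, 2594 and 993 TPM at 3 dpa and 227 and 240.1 TPM at 8 dpa (log2 fold change -2.78 ± 0.51, adjusted p = 0.0426). MYOM2, of the M band, had 12.4 and 5.62 TPM at 3 dpa and 1.46 and 2.21 TPM at 8 dpa (log2 fold change -2.15 ± 0.39, adjusted p = 0.0399), and MYOZ2, of the Z disc, 60.3 and 31.3 TPM at 3 dpa and 13.5 and 13.4 TPM at 8 dpa (log2 fold change -1.68 ± 0.33, adjusted p = 0.0482). CKM, muscle creatine kinase, had 5684 and 1713 TPM at 3 dpa and 606 and 779 TPM at 8 dpa and did not pass the test (log2 fold change -2.18 ± 0.59, adjusted p = 0.103). Replicate 1 at 3 dpa was the higher of its pair for all 6, and the list depended on it: without replicate 1 at 3 dpa none of the 44 was called, at a median of -0.51, and without replicate 2 22 fell, at -2.04, while with either 8 dpa sample left out none fell.

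Some epidermal genes rose in ST. Of 23 keratinocyte genes 7 rose and none fell, against 15.4% of all named genes that rose (median 1.65 and 1.17 after rescaling), and none of the 7 was called after rescaling. Over the 17 paired through the epidermis lists 3 rose, against 6.04% of all symbols from those lists. KRT17, a keratin of wounded epidermis, had 0.44 TPM in both replicates at 3 dpa and 39.02 and 34.2 TPM at 8 dpa (log2 fold change 6.08 ± 0.82, adjusted p = 0.0201), and KRT12 0.45 and 3.32 TPM at 3 dpa and 71.7 and 73.1 TPM at 8 dpa (log2 fold change 5.72 ± 0.77, adjusted p = 0.0201). PERP and DSP, proteins of desmosomes, had 13.5 and 12.2 TPM at 3 dpa and 41.3 and 40.0 TPM at 8 dpa (log2 fold change 1.65 ± 0.18, adjusted p = 0.0112) and 0.25 and 0.47 TPM at 3 dpa and 3.30 and 3.64 TPM at 8 dpa (log2 fold change 3.00 ± 0.41, adjusted p = 0.0206). In the epidermis itself KRT17 had 369 and 579 TPM at 3 dpa and 854 and 989 TPM at 8 dpa, so the level in ST at 8 dpa was small beside it. In the fit without replicate 1 at 3 dpa, 2 of the list were called, and with either 8 dpa sample left out none.

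The same interval was measured in ST after MS-275, in samples that entered the fit above through the filter and the estimated spread, but not through the values compared. There 32 of the 87546 transcripts were called (0.0366%), of which 9 rose (0.0103%) and 23 fell (0.0263%), and at an unadjusted p under 0.05 there were 10549. The 1524 transcripts that rose after DMSO had a median log2 fold change of -0.07 after MS-275, 43.2% of them were higher at 8 dpa, none was called higher and 5 were called lower. Over all tested transcripts the median after MS-275 was 0.04, and 52.3% were higher at 8 dpa. With 0.0103% of all transcripts called higher, the lack of such a call among the 1524 says little. Of the 84 matrix genes none was called after MS-275, which says little beside 0.0366% of all transcripts, and their median was -0.19.

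The difference between the intervals was tested as the interaction of time and treatment. It was called for 1084 transcripts, 963 with a more positive change after DMSO (1.1%) and 121 with a more negative one (0.138%), and for 151 after rescaling. Of the 84 matrix genes 27 had a more positive change after DMSO and none a more negative one, against 7.0% of all named genes, and 2 of them, VCAN and KERA, also after rescaling. The authors' calls for the DMSO interval held 9 cartilage, 13 collagen, 6 basement membrane, 14 blastema matrix and 5 small proteoglycan genes, against 765 of the 3485 named genes. That interval enters this test, so the count is not independent of how the genes were named. After MS-275, VCAN had 54.6 and 38.5 TPM at 3 dpa and 44.8 and 48.04 TPM at 8 dpa (difference of the log2 fold changes 2.61, adjusted p = 0.02), and KERA 7.97 and 5.77 TPM at 3 dpa and 3.90 and 4.25 TPM at 8 dpa (difference 4.90, adjusted p = 0.0158). Both 3 dpa values of VCAN after MS-275 were above those after DMSO, and both 8 dpa values were below.

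Other called differences included collagen, basement membrane and signalling genes. None of the collagen, basement membrane, WNT, BMP and TGF-beta or FGF, IGF, hedgehog and Notch genes kept a called difference after rescaling, COL5A1, LAMB1, NOTCH2, IGFBP3 and PTK7 included. COL5A1 had 102 and 82.8 TPM at 3 dpa and 77.5 and 77.6 TPM at 8 dpa after MS-275 (difference 2.09, adjusted p = 0.0399), and LAMB1 27.2 and 20.6 TPM at 3 dpa and 15.3 and 13.01 TPM at 8 dpa (difference 2.82, adjusted p = 0.0167). MYCN had 1.63 and 1.08 TPM at 3 dpa and 0.81 and 1.05 TPM at 8 dpa (difference 4.06, adjusted p = 0.0187), and it was the limb transcription factor with a called difference. PRRX1 had 8.41 and 10.7 TPM at 3 dpa and 18.3 and 13.7 TPM at 8 dpa, and its difference did not pass the test (1.25, adjusted p = 0.136). NOTCH2 had 5.82 and 5.19 TPM at 3 dpa and 5.49 and 5.72 TPM at 8 dpa (difference 2.12, adjusted p = 0.0235), IGFBP3 14.9 and 13 TPM at 3 dpa and 13.8 and 13.4 TPM at 8 dpa (difference 2.43, adjusted p = 0.0235), and PTK7 10.9 and 8.67 TPM at 3 dpa and 9.16 and 9.42 TPM at 8 dpa (difference 2.23, adjusted p = 0.0288). CDH6 had 0.86 and 0.58 TPM at 3 dpa and 0.94 and 1.21 TPM at 8 dpa (difference 4.32, adjusted p = 0.0246), below all of its DMSO values at 8 dpa.

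Osteoclast genes had like medians after either treatment, 1.08 after DMSO and 1.13 after MS-275, and no member had a called difference. CTSK had 95.9 and 32.5 TPM at 3 dpa and 538 and 796 TPM at 8 dpa after MS-275 (log2 fold change 3.55, adjusted p = 0.0999, difference -0.07, adjusted p = 0.978). The summed TPM of the list stayed lower, at 251 and 189 at 3 dpa and 797 and 1118 at 8 dpa. ACTA1 was lower in the 3 dpa samples and higher in the 8 dpa samples after MS-275, with 92.9 and 74.7 TPM at 3 dpa and 423 and 444 TPM at 8 dpa (difference -4.55, adjusted p = 0.0225).

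Keratinocyte genes held the most called differences between the treatments of the 30 lists, with a median of -3.62 after MS-275 and a called difference for 13 of 23, against 7.0% of all named genes, 4 of them under both scalings. Their summed TPM after MS-275 was 1449 and 3848 at 3 dpa and 166 and 169 at 8 dpa, with the 3 dpa samples of that treatment above the other 8 ST samples. KRT17 had 49.1 and 289 TPM at 3 dpa and 4 and 1.27 TPM at 8 dpa (difference 11.74, adjusted p = 0.0163). The part of these epidermal levels in the differences of other genes was not tested. The number of called differences ranged from 11 to 2499 when 1 of the samples compared was left out.

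**Figure D5:**
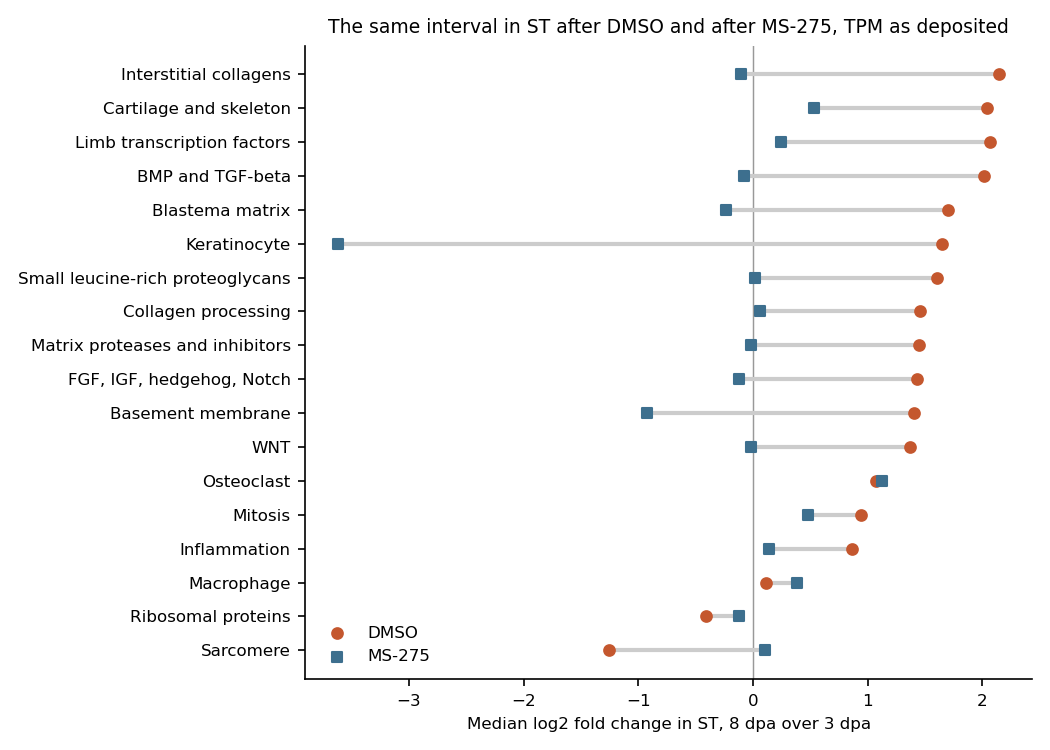
Median log2 fold change of 8 dpa over 3 dpa in ST for 18 gene lists after DMSO (orange circles) and after MS-275 (blue squares), from TPM as deposited. Collagens, limb transcription factors and BMP and TGF-beta genes lay near or above 2 after DMSO and near 0 after MS-275, osteoclast genes lay near 1 after both, and keratinocyte genes lay on opposite sides of 0.

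With TPM as deposited, more transcripts rose than fell in the epidermis of the same conditions as well. There 4671 of 88139 tested transcripts rose (5.3%) and 424 fell (0.481%). After rescaling 646 rose (0.733%) and 681 fell (0.773%). The median ratio factors of the epidermis were 0.745 and 1.02 at 3 dpa and 1.48 and 1.38 at 8 dpa. The transcripts that rose in ST and were tested in the epidermis, 1469, had a median log2 fold change of 1.10 there, against 0.55 for all transcripts tested in both, and 355 of the 1469 were called higher. After rescaling the epidermis these medians were 0.45 and 0.01, and 89 of the 1469 were called higher. A difference between the tissues was called for 123 transcripts, 40 with the more positive change in ST (0.0457%) and 83 with the more negative (0.0948%). That fit treated the tissues as independent, although by the paper's count of animals they came from the same ones.

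Of the matrix genes, 83 were tested in the epidermis, 22 rose, against 21.4% of all named genes, and 1 fell, with a median of 1.05. The cartilage collagen COL9A1 was the matrix gene with a called difference between the tissues (5.91, adjusted p = 0.042), which was not called after rescaling (adjusted p = 0.0548). COL9A1 was near 0 in the epidermis, with 0.01 and 0.14 TPM at 3 dpa and 0.04 and 0.07 TPM at 8 dpa. MMP13 had 4.52 and 10.1 TPM at 3 dpa and 125 and 127 TPM at 8 dpa there (log2 fold change 4.20, adjusted p = 0.0039), and FN1 7.61 and 14.7 TPM at 3 dpa and 76.8 and 94.8 TPM at 8 dpa (3.00, adjusted p = 0.0122), both rising in either tissue. Limb transcription factors had a median of 1.01 in the epidermis. PRRX1 had 0.96 and 2.29 TPM at 3 dpa and 4.52 and 2.97 TPM at 8 dpa (1.24, adjusted p = 0.136), below its ST level at 8 dpa. With TPM as deposited, macrophage and inflammation genes, without a call in ST, had 11 and 15 rises in the epidermis. Their medians there were 1.47 and 1.87, and 3 and 2 differences between the tissues were called. Of the 16 macrophage and 27 inflammation genes, 15 and 22 were paired through the epidermis lists. These rises, and their contrast with ST, thus follow in part from how the genes were named. CSF1R had 7.62 and 12.01 TPM at 3 dpa and 28.96 and 29.8 TPM at 8 dpa in the epidermis (1.61, adjusted p = 0.0162). ERH and SPR, which rose in ST, had 87.2 and 229.5 TPM at 3 dpa and 73.5 and 61.1 TPM at 8 dpa (difference 7.32, adjusted p = 0.000459) and 42.7 and 51.8 TPM at 3 dpa and 30.4 and 31.8 TPM at 8 dpa (difference 5.23, adjusted p = 4.34e-05) in the epidermis, so their low 3 dpa values were those of ST.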

How the data were processed

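RNA of ST and epidermis was sequenced in 20 samples. After trimming with cutadapt, the authors mapped the reads to assembled axolotl transcripts (bowtie2) and estimated abundance with RSEM. The deposited values are TPM rounded to 2 decimals. Counts were not used here, so the sequencing depth is unknown and voom, which the authors used, could not be run.

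The log2(TPM + 0.1) of the 10 ST samples in 5 groups were fitted with limma 3.58.1 (R 4.3.3), with a trend and no other term, two-sided, with Benjamini-Hochberg adjustment over 87546 transcripts. The epidermis was fitted likewise, and the difference between tissues over all 20 samples. By the paper's count of animals, both tissues were taken from the same animals, but which samples match is not given. The fit over both tissues treated their samples as independent. Rescaled TPM were divided by median ratio factors. Symbols came from shortened lists of the authors' calls, 3485 of them tested. Columns of the authors' own fold changes were not used. The members, gene lists and tests were chosen with earlier results of these data known. Named were the 15 largest rises and 10 largest falls under both scalings and up to 8 members of each list, by smallest p or highest level, and any member of the osteoclast, limb transcription factor, WNT, BMP and TGF-beta and small proteoglycan lists, apart from genes that are not reported here. The script was tested on simulated data. Replicates are separate pools of animals. Alternatives were another pseudocount, other filters, no trend, a replicate block, other sets of samples in the fit, summed transcripts and leaving out each sample.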

Additional observations from a re-analysis of the deposited data

Results flagged for a closer look

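The change from 3 to 8 dpa differed between DMSO and MS-275 in ST for 1084 transcripts by the interaction test, and between ST and epidermis after DMSO for 123. The named genes listed here passed that test under both scalings. Every value is a difference of log2 fold changes, DMSO minus MS-275, with limma and Benjamini-Hochberg adjustment over all tested transcripts. Of matrix and mesenchymal genes, it was 2.61 for VCAN, 4.90 for KERA, 4.32 for CDH6, 2.67 for FAT1 and 4.06 for MYCN. Of epidermal genes it was 11.74 for KRT17, 9.93 for KRT12, 6.20 for DSP and 2.65 for PERP.

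A group of 3 genes with low values after MS-275 at 8 dpa showed the same contrast: SFTPC with 9.74, MSLNL with 8.42 and DDB_G0268948 with 9.48. After MS-275, MSLNL had 1.99 and 3.44 TPM at 3 dpa and 0.04 and 0.06 TPM at 8 dpa, and DDB_G0268948 30.99 and 87.5 TPM at 3 dpa and 1.61 and 2.10 TPM at 8 dpa. Their course after MS-275 was that of the keratinocyte genes, whose summed TPM is given in the report, and the part of epidermal RNA in them was not tested.

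The transcripts that stood apart at 3 dpa after DMSO had values of 6.69 for EEF1B, 6.48 for ERH and 4.73 for SPR. Among genes with a more negative change after DMSO, ACTA1 had -4.55, COX7C -2.57 and RPS20 -7.64. Transcripts listed at 0 in a group are given by their adjusted p alone: CSRP1 0.00246, ARHGDIA 0.00617, APLNR 0.0135, CMBL 0.0163, DDX21 0.0171 and PSMD4 0.01997. After MS-275 CMBL was instead at 0 at 3 dpa and at 0.98 and 0.49 TPM at 8 dpa, whereas CSRP1 had 42.5 and 19.5 TPM at 3 dpa and 41.5 and 65.2 TPM at 8 dpa.

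Between the tissues, the difference ST minus epidermis was 7.32 for ERH, 5.23 for SPR and -1.95 for POL, a retroelement symbol, and CSRP1, at 0 in ST at 3 dpa, had an adjusted p of 0.000147. In the epidermis CSRP1 had 11.1 and 13.2 TPM at 3 dpa and 15.7 and 15.4 TPM at 8 dpa, and POL 9.60 and 9.73 TPM at 3 dpa and 75.6 and 86.4 TPM at 8 dpa.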

How the results depend on the processing

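All 148 named genes that were called kept their direction under every alternative in which they had a value, and the number still called was 148 with 1 added to the TPM in place of 0.1, 145 among transcripts averaging at least 1 TPM, 134 with a TPM above 0 in any sample, 57 after rescaling, 75 with no trend, 88 with a replicate block, 131 with all 20 samples in the fit, 137 with summed transcripts, 33, 135, 7 and 7 without replicate 1 and replicate 2 at 3 dpa and at 8 dpa, and 0 with the 4 samples alone. With summed transcripts the calls of RPS20, RPS27, COX7C, MYOZ2, FMOD, PLOD2, BMPR2, CDC20, KPNA2, SEC31A and POL were lost. That the direction was kept is no support for the calls. No trend, a replicate block, other filters and other sets of samples in the fit leave the fold change as it is. For a gene whose groups do not overlap, another pseudocount or a sample left out cannot turn the sign. A fit without a sample assumes that the lone sample varies like the other groups. Of the named genes without a call, 2 changed sign, ACAN (-0.26), which ran from -0.83 without replicate 1 to 0.30 without replicate 2 at 3 dpa, and C1QC (-0.03), which ran from -0.14 without replicate 1 to 0.072 without replicate 2 at 3 dpa.

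The count of 1676 called transcripts became 3971 with the added value of 1, 3261 at an average of at least 1 TPM, 215 after rescaling, 584 with no trend, 1 with the 4 samples alone and 5281 with all 20 samples, and 20 to 3138 when 1 sample was left out. That under both scalings, 202, became 342, 459, 70 with no trend, 1 and 998, and 14 to 1021. In the gene lists, 168 calls became 32 after rescaling, 58 with no trend, 0 with the 4 samples alone, and 0 to 186 when 1 sample was left out. The interval after MS-275, with 32, gave 341 with the added value of 1, 135 with a TPM above 0 in any sample, 5 after rescaling and 9 to 63. The difference between treatments, 1084, gave 2231, 1668, 398 with a TPM above 0 in any sample, 151, 717 with no trend and 11 to 2499. The epidermis, 5095, gave 7967 at an average of at least 1 TPM, 1327 after rescaling, 2306 with no trend and 139 to 8530. The difference between tissues, 123, gave 1069, 264, 298, 71, 48 with no trend and 11 to 605. The cause of these moves was not tested. The alternatives for calls under both scalings and for the lists, and leaving out epidermis samples, were chosen after seeing the data.

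Replicate numbers did not pair the samples: deviations of same-numbered ST samples from their group means correlated at -0.019. With the replicate block, 506 transcripts were called, 54 under both scalings, 71 in the gene lists, 9 after MS-275, 497 for the difference between treatments, 3288 in the epidermis and 96 for the difference between tissues. In every fit that left out 1 of the 4 samples, 16 transcripts were called. The depth of the samples is unknown, so low TPM cannot be given a counting error.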

Other observations

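Genes of cell contact and guidance outside the lists also rose under both scalings. They were picked after their values were seen, from the 60 symbols called higher under both scalings, and so serve as a description. CDH11, the cadherin of mesenchymal cells, had 16.5 and 21.6 TPM at 3 dpa and 118 and 112 TPM at 8 dpa (log2 fold change 2.60 ± 0.25, adjusted p = 0.00909). The giant protocadherins FAT1 and FAT4 had 2.20 and 2.74 TPM at 3 dpa and 13.9 and 12.7 TPM at 8 dpa (log2 fold change 2.39 ± 0.23, adjusted p = 0.00814) and 0.60 and 0.89 TPM at 3 dpa and 5.28 and 5.34 TPM at 8 dpa (log2 fold change 2.70 ± 0.31, adjusted p = 0.0149). ITGA11, a collagen-binding integrin of fibroblasts, had 3.93 and 5.47 TPM at 3 dpa and 27.7 and 27.3 TPM at 8 dpa (log2 fold change 2.54 ± 0.24, adjusted p = 0.00814), and MRC2, which takes up collagen fragments, 4.37 and 4.87 TPM at 3 dpa and 28.4 and 29.5 TPM at 8 dpa (log2 fold change 2.62 ± 0.24, adjusted p = 0.00722). The ephrin receptors EPHA2 and EPHB3 had 1.08 and 1.29 TPM at 3 dpa and 6.70 and 6.11 TPM at 8 dpa (log2 fold change 2.34 ± 0.29, adjusted p = 0.0166) and 1.60 and 1.66 TPM at 3 dpa and 8.43 and 8.83 TPM at 8 dpa (log2 fold change 2.34 ± 0.20, adjusted p = 0.00682), and PXDN, the peroxidase that crosslinks basement membrane collagen, 8.82 and 11.7 TPM at 3 dpa and 48.98 and 46.4 TPM at 8 dpa (log2 fold change 2.22 ± 0.25, adjusted p = 0.0132). APELA, which encodes elabela, a ligand of APLNR, had 0.28 and 0.39 TPM at 3 dpa and 5.57 and 4.84 TPM at 8 dpa (log2 fold change 3.62 ± 0.39, adjusted p = 0.0112), so receptor and ligand were both measurable at 8 dpa. The groups of none of these 9 overlapped.

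Some vessel, nerve and chromatin genes were called, against 15.4% of all named genes that rose with TPM as deposited and 1.72% under both scalings. Of 13 endothelial genes 2 rose under both scalings, among them CLDN5, a tight junction protein of vessels, with 0.96 and 1.64 TPM at 3 dpa and 12.5 and 12.1 TPM at 8 dpa (log2 fold change 3.19 ± 0.30, adjusted p = 0.00832), and the sum of the list was 70.2 and 80.9 TPM at 3 dpa and 126 and 124 at 8 dpa. Of 11 Schwann cell and nerve genes 3 rose with TPM as deposited and none after rescaling: NGFR, the low-affinity neurotrophin receptor, with 1.47 and 1.63 TPM at 3 dpa and 6.23 and 6.87 TPM at 8 dpa (log2 fold change 2.01 ± 0.27, adjusted p = 0.0199), and the adhesion molecules NCAM1, with 2.48 and 3.80 TPM at 3 dpa and 13.4 and 13.6 TPM at 8 dpa (log2 fold change 2.10 ± 0.30, adjusted p = 0.0221), and L1CAM, with 0.35 and 0.62 TPM at 3 dpa and 3.30 and 3.16 TPM at 8 dpa (log2 fold change 2.55 ± 0.43, adjusted p = 0.0345). PMP2, a myelin protein and the most abundant of that list, had 283 and 277 TPM at 3 dpa and 154 and 142 TPM at 8 dpa (log2 fold change -0.92 ± 0.19, adjusted p = 0.0538), so the sum of the list moved opposite to its called members. Of 32 chromatin and splicing genes 6 rose and 1 fell, none of them called after rescaling, with a median that changed sign between the scalings, 0.50 and -0.05 after rescaling. These 6 rises are near the 15.4% of all named genes. Of the 20 paired through the epidermis lists 1 rose, near the 6.04% of all symbols from there. The count thus says nothing particular to the list. CHD4, the remodeller of a deacetylase complex, had 11.1 TPM in both replicates at 3 dpa and 25.96 and 25.1 TPM at 8 dpa (log2 fold change 1.20 ± 0.15, adjusted p = 0.0185), and SRSF1, a splicing factor, 35.2 and 21.4 TPM at 3 dpa and 9.19 and 9.42 TPM at 8 dpa (log2 fold change -1.55 ± 0.28, adjusted p = 0.0412). None of the nerve and chromatin calls held without replicate 1 at 3 dpa, and none of the vessel, nerve and chromatin calls with either 8 dpa sample left out.

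Of 16 retroelement-derived symbols 3 rose, near the 15.4% of all named genes, so the count says nothing particular to the list. After rescaling 1 was called, and 2 with TPM summed over paired transcripts. The median was 1.11 and 0.56 after rescaling, with summed TPM of 72.3 and 112 at 3 dpa and 278 and 264 at 8 dpa. GAG-POL had 1.15 and 0.86 TPM at 0 dpa, 8.38 and 9.28 TPM at 3 dpa and 31.9 and 31.1 TPM at 8 dpa (log2 fold change 1.83 ± 0.19, adjusted p = 0.0112), and 14.4 and 12.2 TPM at 3 dpa and 12.1 TPM in both replicates at 8 dpa after MS-275. Such symbols stand for families of near-identical copies, so a transcript cannot be placed at a locus. None of the 3 was called without replicate 1 at 3 dpa or with either 8 dpa sample left out.

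The study's signatures of connective tissue cell types were paired in part, and they overlap with the matrix lists. Tendon had 10 of 16 paired markers called higher and 3 under both scalings (median 2.02 and 1.47 after rescaling), and Periskeletal 8 of 18 and 3 (median 1.72 and 1.18 after rescaling). Counts with TPM as deposited stand against 15.4% of all named genes, and those under both scalings against 1.72%. Of the fibroblastic types, after rescaling 1 marker each of fCT V and fCT III and none of fCT I, fCT II and fCT IV was called, nor any of Cycling cells. With TPM as deposited, fCT V had 8 of 14 called (median 1.58), fCT II 7 of 13 (1.50), fCT I 8 of 18 (0.95), fCT IV 2 of 7 (0.70) and fCT III 1 of 4 (0.84). The Cycling cells signature had 1 of 11 called (0.60). None of these had a called fall. Without replicate 1 at 3 dpa at most 1 marker of a signature was called, and with either 8 dpa sample left out none.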
